A study of Mus musculus with 60 samples.

Results

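Transcripts of 10 genes of the elastic matrix, of its crosslinking and of transforming growth factor beta (TGF-beta) were followed in lung, liver and forestomach of mice given benzo(ghi)perylene (BghiP), a polycyclic aromatic hydrocarbon. The genes were the crosslinking enzymes Loxl1, Lox and Loxl2, the elastic fibre proteins Eln, Fbn1 and Fbln5, the matrix glycoprotein Fn1, and the growth factors Tgfb1, Tgfb2 and Tgfb3. They were 10 of 20018 genes that could be named through the RefSeq accession of a probe on the arrays, and they had 16 probes. Their accessions were NM_010729 (Loxl1), NM_010728 (Lox), NM_033325 (Loxl2), NM_007925 (Eln), NM_007993 (Fbn1), NM_011812 (Fbln5), NM_010233 (Fn1), NM_011577 (Tgfb1), NM_009367 (Tgfb2) and NM_009368 (Tgfb3). The log2 ratios of these same 60 arrays, over 3 tissues and 4 doses and with slide taken into account, were the values the genes were chosen by, so that their levels and changes are given as a description, with no test.

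All animals were male Muta Mouse, a transgenic strain that carries a bacterial reporter gene for mutation assays, about 10 weeks old, and all were gavaged for 28 days with olive oil, alone (D0, 0 mg/kg-bw/day) or with BghiP at 6.25 (D1), 12.5 (D2) or 25 (D3) mg/kg-bw/day. Each dose had 5 mice, killed 72 hours after their last gavage. Numbers run from 1 to 5 in D0, from 6 to 10 in D1, from 11 to 15 in D2 and from 16 to 20 in D3, and a number stands for the same animal in all 3 tissues. Each array carried RNA of 1 tissue of 1 mouse, labelled with Cy5, beside a universal mouse reference RNA labelled with Cy3, and dyes were not swapped. A level is the log2 ratio of Cy5 to Cy3, which can be compared between samples of a gene but not between genes, since the reference holds each transcript at its own level.

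Elastic fibres give lung its recoil. Tropoelastin, the product of Eln, is laid on a scaffold of microfibrils built from fibrillin-1 (Fbn1), guided by fibulin-5 (Fbln5), and is then crosslinked by lysyl oxidases, of which Loxl1 is tied to elastic fibre upkeep, while Lox and Loxl2 also act on collagens. TGF-beta ligands are stored as latent complexes bound to fibrillin and fibronectin (Fn1) in the same matrix, and once released they signal through the receptors Tgfbr1 and Tgfbr2 to SMAD proteins, which raise transcription of many matrix genes.

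RefSeq promoter sequences (GRCm38.p6) were at hand for 4 of the 10 genes, Tgfb1, Tgfb2, Fbn1 and Fbln5. Those of Tgfb2 and Fbn1 are printed because the values of both genes in lung at the highest dose lay wholly above those of vehicle mice, and that of Tgfb1 because it is the ligand that differed least. Each runs from 5′ to 3′ on the strand of the gene and ends before the annotated start, with the bases that a longer model counts as Fbn1 left out. The Tgfb2 window lies within the span of a longer model of the gene. Capitals mark any match, on either strand, to a TATA box (TATAA), an E-box (CACGTG), a GC box (CCGCCC), the core of a SMAD site (CAGAC) or the core of a xenobiotic response element (GCGTG).
Tgfb2, chr1:186705990-186706239 on the minus strand: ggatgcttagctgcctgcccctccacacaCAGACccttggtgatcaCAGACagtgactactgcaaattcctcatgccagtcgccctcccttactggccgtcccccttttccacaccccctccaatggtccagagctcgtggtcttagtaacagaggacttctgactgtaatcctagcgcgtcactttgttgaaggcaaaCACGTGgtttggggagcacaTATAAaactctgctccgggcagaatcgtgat
Fbn1, chr2:125506486-125506688 on the minus strand: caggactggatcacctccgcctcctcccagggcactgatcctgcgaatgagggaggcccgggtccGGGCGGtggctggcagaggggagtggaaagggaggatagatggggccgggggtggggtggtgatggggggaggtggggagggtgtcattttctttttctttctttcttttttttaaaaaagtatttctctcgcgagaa
Tgfb1, chr7:25686752-25687001 on the plus strand: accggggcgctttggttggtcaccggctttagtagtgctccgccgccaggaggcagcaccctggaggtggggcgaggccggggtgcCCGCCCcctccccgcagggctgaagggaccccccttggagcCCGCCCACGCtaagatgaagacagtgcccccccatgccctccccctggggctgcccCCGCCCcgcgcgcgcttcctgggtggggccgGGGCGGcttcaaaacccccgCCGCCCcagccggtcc

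The Tgfb2 window held TATAA at -31, CACGTG at -51 and CAGAC at -221 and -204, counted from the annotated start to the first base of the match. The Fbn1 window held 1 match, CCGCCC at -185. The Tgfb1 window, with 75.2% G and C against 53.6% in that of Tgfb2, held CCGCCC at -164, -123, -67, -36 and -16, and GCGTG at -118, which shares 1 base with the CCGCCC at -123. Fbln5 had more than 1 entry, not printed here, each counted from its own start. Of these, 1 held GCGTG at -187, -141, -73 and -61 and CCGCCC at -221 and -48, while another held CAGAC at -199 and -15. Among all 32851 promoter windows of 250 bases, 22.8% held TATAA, 6.0% CACGTG, 32.7% CCGCCC, 42.2% CAGAC and 28.2% GCGTG. Such matches are letters in a window and show no binding.

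Lung and forestomach arrays shared 5 slides, each with 1 array of every dose and tissue, and the liver arrays were on 3 further slides. Each dose had its own place in the row on all slides, so that this place and dose cannot be told apart. Lung identity markers (5 of 5), liver identity markers (5 of 5) and, in forestomach, keratinocyte markers (5 of 5) were above background on all 20 arrays of their tissue. The share of all probes above background varied between arrays, from 34.9% to 58.6% in lung, 36.3% to 48.3% in liver and 21.3% to 53.3% in forestomach. A few arrays stood apart by markers of other cells. Lung of D0 mouse 1 had skeletal muscle markers 4.85 above the mean of the D0 mice on the log2 scale, where the next lung array had 0.04, and keratinocyte markers at 2.20 (next -0.40). Forestomach of D0 mouse 2 had lung markers at 3.78 (next 0.95), and forestomach of D0 mouse 5 had fat cell markers at 3.30 (next 1.23). Liver and glandular stomach markers varied widely among forestomach arrays, with the highest at 3.56 and 4.38. In these tissue homogenates, fewer cells of a type and less RNA per cell cannot be told apart.

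Doses were set against vehicle within each tissue to see whether exposure moved these transcripts, and the 3 doses share the same 5 vehicle mice. A probe counted as called where limma, with slide as a block, gave a Benjamini-Hochberg adjusted p no higher than 0.05 together with a difference of 1.5-fold or more. At D3, 21 of 31022 probes were called in lung (0.0677%), 17 of them higher (0.0548%), and 24 of 25893 in liver (0.0927%). In forestomach limma called 0 of 25070 at D3, with 1608 at an unadjusted p under 0.05. At D1 and D2 limma called 0 in every tissue. Before adjustment, 2906 (D1) and 3800 (D2) lung probes had a p under 0.05, as did 1098 and 1770 liver probes and 4546 and 2363 forestomach probes. Without the slide term 0 probes were called in any tissue at any dose, D3 in lung and liver included, where 1492 and 3145 had an unadjusted p under 0.05.

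In lung, 9 of the 10 genes had a higher mean at D3 than in vehicle mice, and the median of the 10 changes was 0.33 on the log2 scale, against 0.01 over all probes tested, of which 52.6% were higher. The genes of the set that differed most were Loxl1, Tgfb2, Fbln5, Fbn1 and Tgfb3, by 0.36 to 0.77 at D3. Lox, Loxl2, Tgfb1, Fn1 and Eln differed by -0.01 to 0.29, each by less than 2 standard errors of its change. Loxl1 and Tgfb2 were among the probes called, 2 of 10 beside 0.0677% of all probes. These counts use the contrast by which the genes were chosen, and nothing is read from them.

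**Figure D1:**
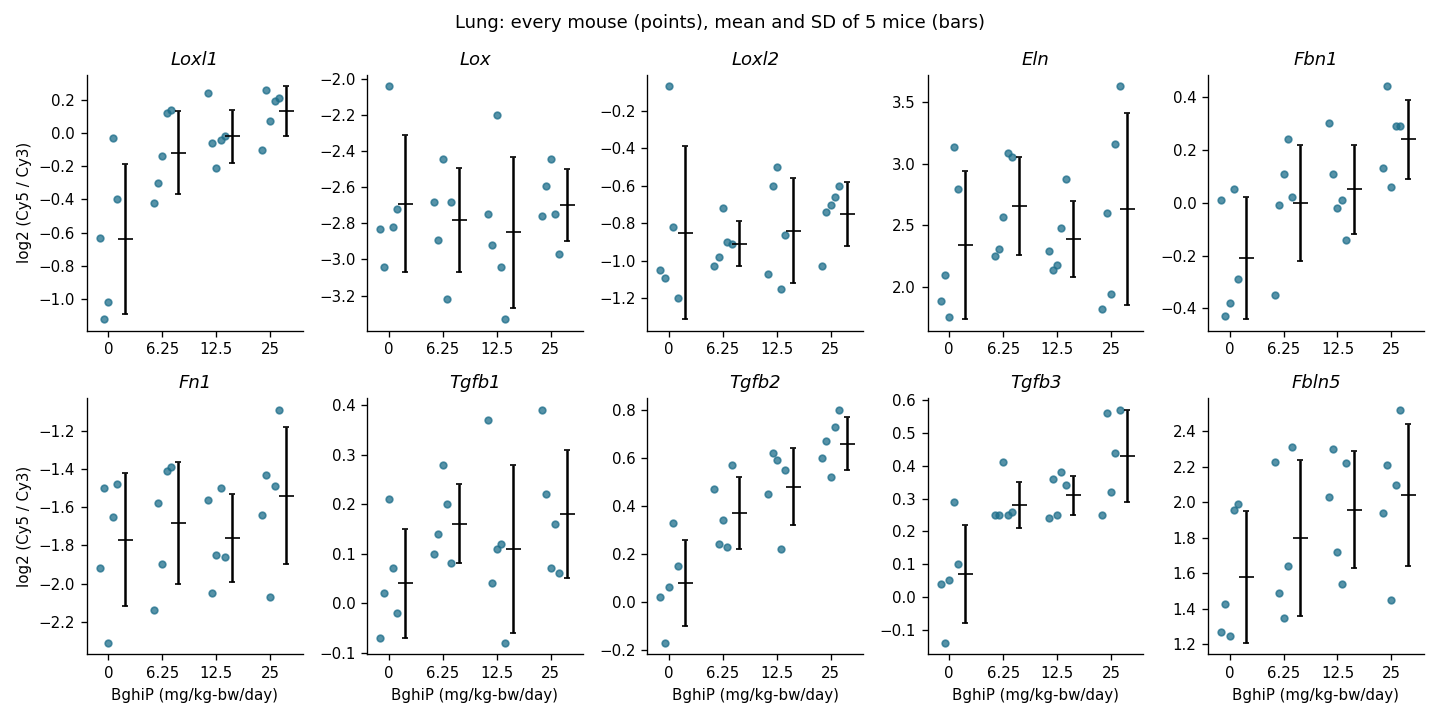
Log2 ratio of Cy5 to Cy3 in lung (y axis, each panel with its own scale) against dose in mg/kg-bw/day (x axis, doses evenly spaced) for the 10 genes, with a point for every mouse and a bar for the mean and SD of 5 mice. The 5 points of Tgfb2 at 25 mg/kg-bw/day lie between 0.52 and 0.80, above all vehicle values (highest 0.33), whereas the points of Lox at the highest dose lie among those of vehicle mice.

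Loxl1, the lysyl oxidase-like enzyme of elastic fibre upkeep, had log2 ratios in lung of -0.63, -1.12, -1.02, -0.03 and -0.40 in D0 mice 1 to 5. They were -0.42, -0.30, -0.14, 0.12 and 0.14 in D1 mice 6 to 10, and 0.24, -0.06, -0.21, -0.04 and -0.02 in D2 mice 11 to 15. The D3 mice 16 to 20 had -0.10, 0.26, 0.07, 0.19 and 0.21. Vehicle mice were the most spread, and D0 mouse 4 alone lay within the range of the D3 mice, above D3 mouse 16. The change from D0 was 0.52 at D1, 0.62 at D2 and 0.77 at D3, each with a standard error (SE) of 0.14, the last being 1.7-fold.

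On each of the 5 slides the D3 array was above the D0 array for Loxl1, by 0.22 to 1.38. The whole of the change was in the tissue channel, with Cy5 higher by 0.78 and Cy3 by 0.00 after centring each array on its median. A second, dimmer Loxl1 probe differed by 0.61 ± 0.13 (SE) and was not called. Without D0 mouse 1, whose lung array held skeletal muscle and keratinocyte markers, the change was 0.79 ± 0.16 and not called, and leaving out each D0 or D3 mouse in turn gave 0.66 to 0.90, called in 3 of 10 cases (without D0 mouse 4, D0 mouse 5 or D3 mouse 20).

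Lox and Loxl2, enzymes that crosslink collagen and elastin, varied less with dose than between mice. Lox lay between -3.04 and -2.04 in the D0 lungs and between -2.97 and -2.44 in the D3 lungs, and its change at D3 was -0.01 ± 0.13. Its second probe gave -0.18 ± 0.13. Loxl2 lay between -1.20 and -0.07 in D0 and between -1.03 and -0.60 in D3, with changes of 0.10 ± 0.14, 0.22 ± 0.11 and 0.11 ± 0.13 from its 3 probes. For both genes the lung of D0 mouse 3 was the highest vehicle value, and the slide it was on had the highest slide mean, -2.28 for Lox and -0.50 for Loxl2.

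Fbn1, which encodes the fibrillin of microfibrils, had log2 ratios of 0.01, -0.43, -0.38, 0.05 and -0.29 in the D0 lungs and of 0.13, 0.44, 0.06, 0.29 and 0.29 in the D3 lungs. The 2 groups did not overlap, although the lowest D3 value, 0.06, and the highest D0 value, 0.05, were almost equal. Of all lung probes tested, 0.438% had D3 values wholly above those of D0, and 2 of the 10 genes, Fbn1 and Tgfb2. D1 lungs lay between -0.35 and 0.24 and D2 lungs between -0.14 and 0.30. The change was 0.21 at D1, 0.26 at D2 and 0.45 at D3, with an SE of 0.12 each, and at D3 it was positive on 5 of 5 slides, from 0.12 to 0.87.

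Fbln5, whose product binds tropoelastin and cell surface integrins, had 1.27, 1.43, 1.25, 1.96 and 1.99 in the D0 lungs and 1.94, 2.21, 1.45, 2.10 and 2.52 in the D3 lungs. D0 mice 4 and 5 overlapped with D3 mice 16 and 18, and 4 of 5 D3 mice were above the vehicle mean. The change was 0.22, 0.38 and 0.46 at D1, D2 and D3, with an SE of 0.16 with the slide term and, at D3, 0.23 without it. On 5 of 5 slides the D3 array was above the D0 array, by 0.13 to 0.78. Without D0 mouse 1 the change at D3 was 0.35 ± 0.16.

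Eln, the gene of tropoelastin, had the largest spread among the lungs, from 1.76 to 3.14 in D0 and from 1.82 to 3.63 in D3, and its slide means ran from 2.07 to 3.09 while its dose means spanned 0.32. Its change was 0.32 at D1, 0.06 at D2 and 0.29 at D3, with an SE of 0.17 each. The reference was above background for this probe on 50 of 60 arrays, and at D3 the Cy3 channel was higher by 0.25 and Cy5 by 0.55. Fn1, the gene of fibronectin, lay between -2.31 and -1.48 in D0 and between -2.07 and -1.09 in D3, with a change of 0.23 ± 0.14 that was positive on 5 of 5 slides (0.07 to 0.39).

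Tgfb2 is one of the TGF-beta ligands, and its promoter is the one with a TATA box above. Its log2 ratios were 0.02, -0.17, 0.06, 0.33 and 0.15 in the D0 lungs and 0.47, 0.24, 0.34, 0.23 and 0.57 in the D1 lungs. They were 0.45, 0.62, 0.59, 0.22 and 0.55 at D2 and 0.60, 0.67, 0.52, 0.73 and 0.80 at D3. The D3 mice lay wholly above the vehicle mice, while D1 and D2 mice overlapped with D0 mouse 4. The change was 0.29, 0.41 and 0.59 at D1, D2 and D3, with an SE of 0.10 each and 1.5-fold at D3, at the edge of the limit. Within slides D3 was above D0 by 0.40 to 0.84, and the Cy5 channel carried the difference (0.56, against -0.03 for Cy3).

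The second probe of Tgfb2 differed by 0.44 ± 0.11 at D3 and was not called. Without D0 mouse 1 the first probe gave 0.57 ± 0.11, not called, and leaving out each D0 or D3 mouse gave 0.52 to 0.68, called in 3 of 10 cases (without D0 mouse 3, D0 mouse 4 or D3 mouse 18). A straight line on dose had a slope of 0.55 ± 0.10 per 25 mg/kg-bw/day for Tgfb2. As these doses also entered the choice of the genes, slopes are a description. That of Tgfb2 was among the 0.306% of lung probes at an adjusted p no higher than 0.05, but not with processed signals (0.49) nor in 7 of 20 fits that left out 1 mouse (without D0 mouse 1, 2, 3 or 5, or D3 mouse 16, 17 or 19), and nothing is read from it. Slopes of 0.68 ± 0.16 for Loxl1, 0.44 ± 0.15 for Fbln5, 0.42 ± 0.11 for Fbn1 and 0.33 ± 0.08 for Tgfb3 were not among them. Without the slide term no lung slope was called for any probe.

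Tgfb3, measured by 10 spots per array with a median SD between spots of 0.117, had 0.04, -0.14, 0.05, 0.29 and 0.10 in the D0 lungs. It had 0.25, 0.25, 0.41, 0.25 and 0.26 at D1, 0.24, 0.36, 0.25, 0.38 and 0.34 at D2, and 0.25, 0.56, 0.32, 0.44 and 0.57 at D3. D0 mouse 4 alone among vehicle mice reached the treated lungs, all 15 of which were above the vehicle mean. The change was 0.22, 0.24 and 0.36, with an SE of 0.08 each, and the value at D3 had an adjusted p of at most 0.05 at under 1.5-fold, as 0.567% of all lung probes had at any fold.

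Tgfb1, the ligand most used in studies of fibrosis, also had 10 spots per array (median SD between spots 0.120) and differed least of the 3 ligands. It lay between -0.07 and 0.21 in D0 and between 0.06 and 0.39 in D3, and its changes of 0.12, 0.08 and 0.14 had an SE of 0.08.

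**Figure D2:**
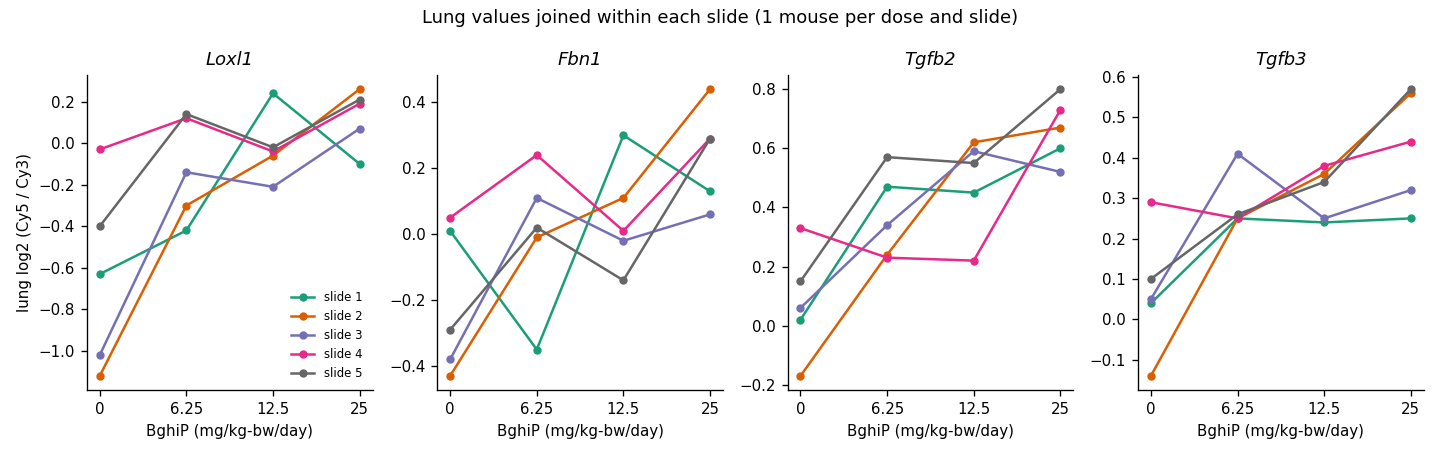
Lung log2 ratios of Cy5 to Cy3 (y axis) of Loxl1, Fbn1, Tgfb2 and Tgfb3 against dose in mg/kg-bw/day (x axis, doses evenly spaced), with the 4 mice of each of the 5 slides joined by a line of 1 colour. On all 5 slides the point at 25 mg/kg-bw/day is above the vehicle point for each of the 4 genes, by 0.22 to 1.38 for Loxl1 and 0.40 to 0.84 for Tgfb2, and the lines cross at the middle doses.

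In liver the same genes moved little. Lox was above background on 0 of 20 liver arrays and was not tested there. Of the other 9 genes, 3 were higher and 6 lower at D3, with a median change of -0.09 against 0.00 over all liver probes, a range from -0.19 to 0.15 and SEs of 0.07 to 0.12, and limma called 0 of them. The upper end, 0.15 ± 0.09, was Eln, which was above background on 7 of 20 livers. None had D3 livers wholly below or above the D0 livers, against 1.81% and 0.919% of all liver probes. None had a called slope in liver, against 2.61%. Tgfb3 was lowest, at -0.19 ± 0.07, with livers from -3.04 to -2.76 in D0 and from -3.29 to -2.86 in D3, which overlap. Loxl1, which was higher in lung, had -2.72 to -2.89 in the D0 livers and -2.83 to -2.91 in the D3 livers, a change of -0.08 ± 0.07.

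In forestomach all 10 genes had a lower mean at D1 than at D0, with a median of -0.29 against -0.02 over all probes. Lox, at -0.45 ± 0.20, was above background on 2 of 5 D0 and 1 of 5 D1 arrays, so that its value is a difference of signals near background. The other 9 ran from -0.37 ± 0.28 for Fbn1 to -0.09 ± 0.17 for Fbln5. Marker means moved at D1 in the same arrays, by 2.68 for glandular stomach, 1.64 for liver identity, -0.28 for fibroblasts, -0.24 for smooth muscle and -0.29 for mesothelial cells. Those of fat cells moved by -0.99, lung identity by -0.84, skeletal muscle by -0.35 and platelets by -0.31. Endothelial cell and chondrocyte markers moved by -0.12 each and keratinocyte markers by 0.05. The part of all these markers in the values was not tested. At D2, 6 genes were higher and 4 lower, and at D3, 4 were higher and 6 lower, with medians of 0.07 and -0.10. None was called at any dose. In lung the D3 mean was the highest for 8 of the 10 genes, a count from values the genes were chosen by. Whether the order of the doses differed between the tissues was not tested. Spread in forestomach was wide. SEs ran from 0.13 to 0.37, and slide means of Eln ran from 0.89 to 3.09, a span of 2.20, while its dose means spanned 0.73. Without D0 mice 2 and 5, whose arrays held lung and fat cell markers (an alternative chosen after seeing the data), the D1 changes stayed below 0 for all 10 genes (-0.50 to -0.06). Forestomach of D2 mouse 15 had the highest smooth muscle and mesothelial marker means (1.43 and 1.39, next 0.98 and 0.44) and the highest values of Eln (3.82), Fn1 (-0.73), Fbln5 (-0.33), Tgfb3 (-0.38) and Loxl1 (-0.06) of the 20 forestomach arrays. The part of these markers in the values was not tested.

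**Figure D3:**
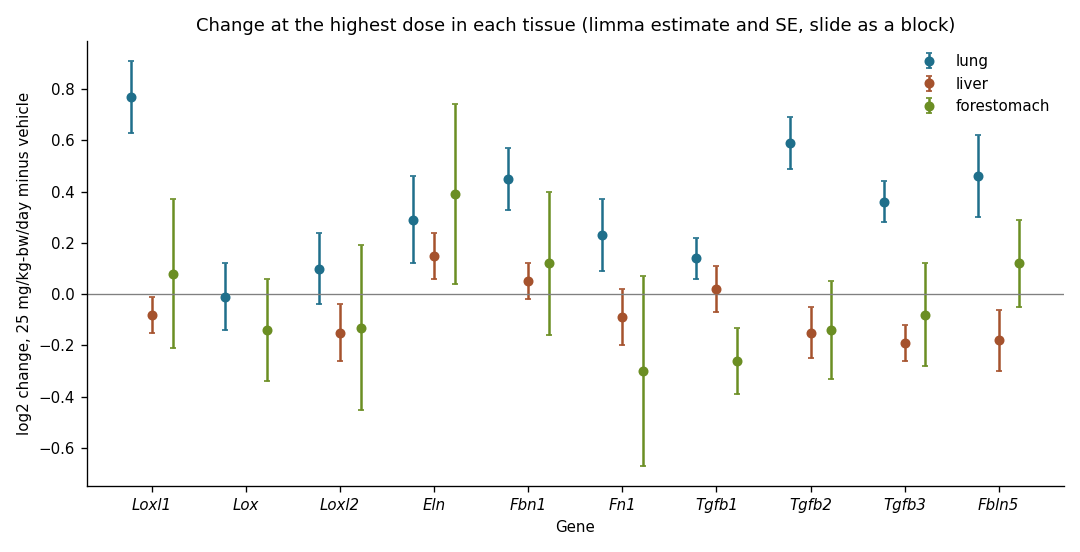
Log2 change at 25 mg/kg-bw/day from vehicle (y axis) for each gene (x axis) in lung, liver and forestomach, as the limma estimate with its SE and slide as a block, from 5 mice per dose. Lung points of Loxl1 (0.77) and Tgfb2 (0.59) stand above the others, liver points lie between -0.19 and 0.15, and the bars are widest in forestomach. Lox has no liver point, since it was above background on 0 of 20 arrays.

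Markers of mesothelial cells, which line the lung surface, were higher in the same treated lungs at every dose, by 0.61 on average at D1 and 0.61 at D2. Of 6 mesothelial markers, all tested and 5 above background on all 20 arrays, 6 were higher at D3, by 0.74 on average, and Upk3b and Lrrn4 were called. Their mean per mouse, relative to the D0 mean, ran from -0.69 to 0.84 in D0 and from 0.27 to 1.16 in D3. Smooth muscle markers were higher for 5 of 6 tested, by 0.28 on average (D0 from -0.46 to 0.44, D3 from -0.01 to 0.74), with Lmod1 above background on no array. Fibroblast markers were higher for 7 of 8, by 0.16 on average (D0 from -0.57 to 0.29, D3 from -0.21 to 0.70), and Col1a1 and Dcn, named below as pathway genes, are among these 8, as Tagln is among the smooth muscle markers. Fat cell markers were higher for 5 of 5 tested, by 0.33 on average (D0 from -1.41 to 1.11, D3 from -0.36 to 2.45), with Lep above background on no array. Lung identity markers differed by 0.21. The lung of D3 mouse 20 had the highest fibroblast, smooth muscle and mesothelial means of the 20 lungs (0.70, 0.74 and 1.16, next 0.36, 0.47 and 1.10) and fat cell markers at 2.45, and it also had the highest values of Eln, Fn1, Tgfb2, Tgfb3 and Fbln5. Without this mouse the median change of the 10 genes at D3 was 0.24 and that of Eln 0.15. The marker means without it, computed after seeing the data, were 0.64 (mesothelial), 0.16 (smooth muscle), 0.02 (fibroblast) and 0.15 (lung identity), and that of fat cells turned to -0.20, since 4 of 5 D3 lungs lay below the vehicle mean. The part of these cells in the values of the 10 genes was not tested.

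The question of how the wider pathway stood was put to 79 genes in 8 lists of microfibril parts, crosslinking enzymes, TGF-beta activators, receptors, inhibitors and responsive genes, matrix receptors and proteases, of which the lung fit tested 77, the liver fit 70 and the forestomach fit 72. At D3 in lung 50 of the 77 were higher and 27 lower, with a median change of 0.07 against 0.01 over all probes. None was called with the 1.5-fold limit in any tissue at any dose. At any fold, 4 had an adjusted p of 0.05 or less in lung, against 0.567% of all probes, while 1 did in liver, against 0.305%. Those described next are named because of these values. None in forestomach did.

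In lung Tgfbr2, the type II receptor that binds the ligands, was higher by 0.50 ± 0.09 (limma adjusted p = 0.031). Col1a1, a chain of type I collagen, was higher by 0.58 ± 0.11 (limma adjusted p = 0.0358), and Mfap4, a microfibril-associated protein, by 0.52 ± 0.11 (limma adjusted p = 0.0423). In each case 5 of 5 D3 mice were above the vehicle mean. Without the slide term these adjusted p-values from limma were 0.674 (Tgfbr2), 0.512 (Col1a1) and 0.998 (Mfap4). In liver, Sdc4, a surface proteoglycan that binds fibronectin, was lower by -0.46 ± 0.09 (limma adjusted p = 0.0414, and 0.152 without the slide term).

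Among the other parts of the microfibril list, 11 of 14 genes were higher in lung at D3, with a median of 0.18. Mfap5 had 0.37 ± 0.08 (limma adjusted p = 0.0551), while Fbln2 had -0.22 ± 0.15. Of the other enzymes that crosslink or modify collagen, 5 of 12 were higher, with a median of -0.01. Those furthest from 0 were P4ha1, a prolyl hydroxylase subunit, at -0.38 ± 0.18, and Serpinh1, a collagen chaperone, at -0.37 ± 0.28. Of the TGF-beta responsive genes 12 of 14 were higher, with a median of 0.24, and besides Col1a1 these included the smooth muscle marker Tagln at 0.51 ± 0.14 (limma adjusted p = 0.106).

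The receptor and SMAD list split evenly, 4 higher and 4 lower, with a median of 0.01. Tgfbr1, the partner of Tgfbr2, had -0.31 ± 0.09 (limma adjusted p = 0.121), in the direction opposite to Tgfbr2. Activators had 3 of 6 higher, with Itgb6, an integrin subunit that frees latent TGF-beta, at 0.32 ± 0.14 and Nrros, a docking protein of the latent complex, at 0.18 ± 0.11. Inhibitors had 4 of 8 higher, with Pmepa1 at 0.26 ± 0.11 and Dcn at 0.23 ± 0.31. Of the fibronectin and elastin receptors 6 of 8 were higher, with a median of 0.03 (Itgb5 0.20 ± 0.07, Sdc4 -0.20 ± 0.13), and of the proteases and their inhibitors 7 of 10, with a median of 0.10 (Mmp2 0.37 ± 0.09, Timp2 0.22 ± 0.09).

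The lists sat differently in the other tissues. In liver at D3, 24 of 70 genes were higher and 46 lower, with a median of -0.08 against 0.00 over all probes. All 8 receptors and SMADs were higher there, from 0.02 to 0.30, and all 8 tested proteases and inhibitors lower, from -0.21 to -0.01, none of them with an adjusted p of 0.05 or less. In forestomach at D1, 57 of 72 were lower, with a median of -0.22 against -0.02, and microfibril genes were lower in 13 of 13, in the arrays whose glandular stomach and liver markers were higher and whose fibroblast and smooth muscle markers were lower by the amounts given above. The largest changes among the list genes there ran the other way, at 1.98 ± 0.69 for Furin, 1.09 ± 0.41 for Itgb6 and 0.84 ± 0.31 for P4ha2 (limma adjusted p = 0.195, 0.205 and 0.203). No list gene in forestomach reached an adjusted p of 0.05, the lowest from limma being 0.185 for Fbln2 at D1.

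Levels between tissues were set side by side in the vehicle mice. Of the 10 genes, 9 had their highest mean in lung or forestomach and their lowest in liver, except that Fn1 was highest in liver. All 9 were called as higher in lung than in liver, as 25.4% of all probes were. These differences are a description for these genes, since levels over tissues entered the choice.

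**Figure D4:**
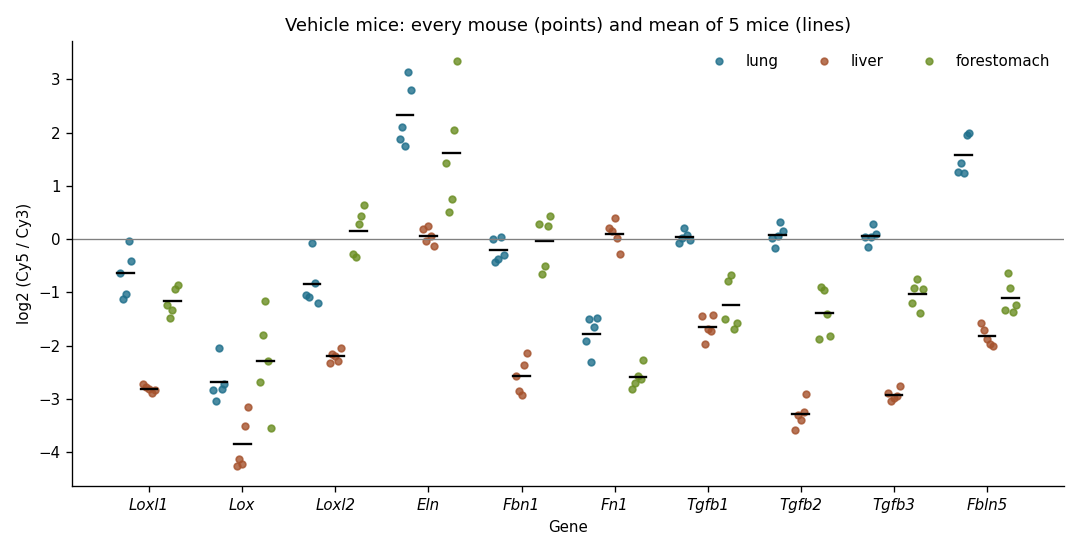
Log2 ratio of Cy5 to Cy3 (y axis) of each gene (x axis) in lung, liver and forestomach of the 5 vehicle mice, with a point per mouse and a line at the mean. Liver points lie below the lung points for 9 of 10 genes and above them for Fn1. Levels of different genes are relative to the reference RNA and cannot be compared with each other.

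The 3 ligands had the order lung, forestomach, liver, though for Tgfb1 the ranges of forestomach and liver overlapped and liver minus forestomach was -0.41 ± 0.16, which turned to 0.33 with processed signals. Tgfb2 had a mean of 0.08 in lung, with livers from -3.59 to -2.90 and forestomachs from -1.88 to -0.90, and lung was above liver by 3.36 ± 0.17, or 10.3-fold. Tgfb3 was above liver by 2.99 ± 0.13 and above forestomach by 1.10 ± 0.13. Tgfb1 was above liver by 1.69 ± 0.16 and above forestomach by 1.28 ± 0.16. For the 3 ligands the lung ranges over all 20 mice were above the ranges of both other tissues.

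Fbln5, an elastic fibre gene measured above background on all livers, was higher in lung, above liver by 3.41 ± 0.19 (10.6-fold) and above forestomach by 2.68 ± 0.19. Fbn1 was at like levels in lung and forestomach, with overlapping ranges and a difference of lung minus forestomach of -0.17 ± 0.25 (0.04 with processed signals), and both were above liver, lung by 2.36 ± 0.25, with Fbn1 above background on 3 of 5 D0 livers. With processed signals this difference was 3.76. Eln followed lung, forestomach, liver, with lung and forestomach overlapping (0.71 ± 0.41) and lung above liver by 2.27 ± 0.41, but it was above background on 2 of 5 D0 livers and 7 of 20 livers in all. With processed signals, from which background had been subtracted, the lung and liver levels of Eln differed by 3.58.

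Among the enzymes, Loxl1 was above liver by 2.17 ± 0.20 in lung, and lung and forestomach overlapped (0.53 ± 0.20). Loxl2 was highest in forestomach, with lung minus forestomach at -0.99 and liver minus forestomach at -2.35, each with an SE of 0.24, although its lung and forestomach ranges overlapped. Lox was not well above background on any liver array. Its Cy5 signal was at least 1.80-fold higher in lung than in liver. No bound is given for forestomach, where 2 of 5 D0 arrays measured it above background. Means of channels scaled between arrays were used for the lung bound, with the dim side set to the higher of its own signal and the lowest signal above background on the array. The lung and forestomach order of Lox was not settled, at -0.40 ± 0.32, and turned to 0.60 with processed signals.

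Fn1 ran against the rest. Hepatocytes secrete plasma fibronectin, and Fn1 was highest in liver, with lung minus liver at -1.88 ± 0.27 and liver minus forestomach at 2.70 ± 0.27. D0 livers ran from -0.27 to 0.40, lungs from -2.31 to -1.48 and forestomachs from -2.81 to -2.27. Liver values over all 20 mice lay above those of the other tissues. Microfibril genes of the wider list were called as higher in lung than in liver for 11 of 14 and as higher in liver for 0 (median 3.22, against 0.06 over all probes), beside 25.4% and 19% of all probes. TGF-beta responsive genes had 12 of 14 and 0 (median 2.54), receptors and SMADs 6 of 8 and 0 (1.48), proteases and inhibitors 6 and 1 of 10 (1.55), and activators 4 and 1 of 6 (1.44). TGF-beta inhibitors had 5 of 8 and 0 (1.19), the other crosslinking enzymes 7 and 3 of 12 (1.17), and fibronectin and elastin receptors 3 and 1 of 8 (0.09). Mfap4 was above liver by 5.77 ± 0.34 and Mfap2 by 3.72 ± 0.18 in lung (limma adjusted p = 1.49e-21 and 1.47e-24).

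How the genes varied together was described over the 20 lungs after the means of slides and doses had been removed, so that Pearson's r refers to what is left between mice. Fbln5 and Tgfb2 had r = 0.88, and Fbn1 and Loxl1 had r = 0.81. These 4 genes did not form 1 group, as Fbn1 and Fbln5 had r = 0.06. Tgfb3 and Eln lay between. Tgfb3 had 0.51 to 0.59 against Fbn1, Tgfb2, Loxl1 and Eln and 0.43 against Fbln5, and Eln had 0.48 to 0.56 against the 4 genes. Fn1 was below 0 with Loxl2, Tgfb2 and Fbln5 (-0.35, -0.29 and -0.26). Arrays share a common reference, signal depth and tissue make-up, and these values carry no test.

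**Figure D5:**
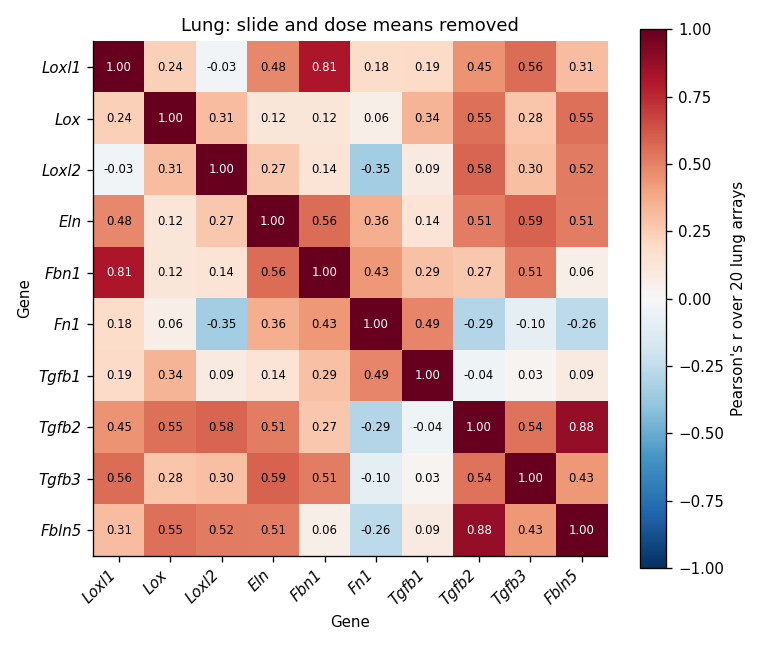
Pearson's r between the 10 genes (both axes) over 20 lung arrays after removal of slide and dose means, with colour from -1 to 1 and the value in each cell. The highest values off the diagonal are 0.88 for Fbln5 and Tgfb2 and 0.81 for Fbn1 and Loxl1.

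Of 14470 other named genes tested in lung, those with the nearest pattern by the same measure were Zeb1 (r = 0.87), Slc1a2 (0.85) and Anxa5 (0.83) for Loxl1, and Mprip (0.87), Chmp6 (0.85) and Slc1a2 (0.85) for Fbn1, which thus shared 1 neighbour. Tgfb2 was nearest to G6pc3 (0.90), Septin10 (0.90) and Chadl (0.86), and Fbln5 to G6pc3, Mcm6 and Chpf (0.91 each). The nearest to Tgfb3 were Decr1 (0.91), Ctf1 (0.85) and Gfm1 (0.85), and to Tgfb1 Nfkbie (0.90), Hbegf (0.89) and Scube2 (0.88). For Fn1 they were Wfdc16 (0.92), Vegfd (0.91) and Acadsb (0.87), and for Eln Daglb (0.91), Mtbp (0.83) and Czib (0.82). For Lox they were Dpysl3, Samd5 and Pmaip1 (0.84 each), and for Loxl2 Mfsd10 (0.90), Cks2 (0.89) and Rnf170 (0.89). With so many genes and 20 arrays, values of this size are the top of a long list and are given as a description.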

How the data were processed

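The authors deposited 60 scanner files of Agilent 2-colour arrays with spot intensity values of both channels (Feature Extraction 10.7.3.1 and genome build mm9, per the file headers), and a table of processed log2 ratios, already normalized by the authors. Here the median signals of both channels were loess-normalized within arrays with limma 3.58.1 in R 4.3.3, without background subtraction, as log2 Cy5/Cy3. Control spots (3671 of 62976 per array) and values with outlier flags (0.46%) were left out, and spots of a probe were averaged, giving 55681 probes. These ratios correlated with the deposited log2 ratios at r = 0.992 to 0.999 per array. The deposited columns had medians of -0.04 to -0.01, and their ratios run the same way, Cy5 over Cy3.

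Genes were named through RefSeq accessions (26413 probes, 47.4%), each by the probe brightest in Cy5. Probes above background in Cy5 on at least 5 arrays of a tissue were tested, 31022 in lung, 25893 in liver and 25070 in forestomach. Each tissue was fitted on its own with 4 dose groups and slide as a fixed block, with a slope on dose in the same way. Tissues were compared in vehicle mice in a model of all 60 arrays. Mouse numbers pair samples across tissues because the same number is the same animal, and the fit with mouse as a block was an alternative. The named genes were the 10 members and, since no list gene was called in a dose comparison, the 2 of each list with the largest change at D3 in lung. List genes called between tissues were counted per list and were not all named. Tgfbr2, Col1a1, Mfap4, Sdc4, Fbln2, Mfap2, Furin and P4ha2 were also named after their values were seen, and 1 list gene is not reported here. The members, lists and tests were chosen with earlier results of these data known. Alternatives were normexp (offset 50), processed signals, the deposited ratios, other filters, no slide term or slide as a random block, a variance trend, the mean of all probes and leaving out each mouse. Precision is limited by there being 5 mice in each group.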

Additional observations from a re-analysis of the deposited data

Results flagged for a closer look

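Of 120 sets of 5 mice (a gene in a tissue at a dose), 4 held a value far from the others, and chance gives about 1 in 20 sets, or 6. Eln in the liver of D1 mouse 6 was -0.01, where the other 4 livers had 0.20 to 0.26, and Eln was not above background on that array nor on those of D1 mice 7 and 10. Tgfb1 in the forestomach of D2 mouse 13 was -0.86, with the next at -1.34. Tgfb1 was not above background on that array, nor on the other 3 forestomach arrays of its slide (-0.67, -0.84 and -1.0), whose mean of -0.84 lay above the means of the other 4 slides (-1.64 to -1.28). Tgfb3 in the lung of D1 mouse 8 was 0.41, with the next at 0.26, and that array also had the highest fat cell marker mean of the lungs (3.37, next 2.80). Tgfb3 in the liver of D1 mouse 10 was -2.94, with the next at -3.07.

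In 2 cases all 5 treated mice lay above the vehicle mean in lung and all 5 below it in liver. For Loxl1 at D3 the group means differed by 0.77 in lung and -0.06 in liver, and for Tgfb3 at D1 by 0.22 in lung and -0.15 in liver. The difference between the tissues was not tested. The same count was not made over all probes, so nothing is read from these cases.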

How the results depend on the processing

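No result changed from one called direction to the other. The 21 probes called in lung at D3 became 40 with normexp, 5 with processed signals, 11 with slide as a random block and 0 without a slide term. The 24 in liver became 12 with processed signals, 38 with probes above background on all 20 arrays, 40 with a variance trend and 0 without a slide term. The 4 list genes in lung and 1 in liver became 0 with processed signals and 0 without a slide term. The 95 slopes in lung became 0 without a slide term, 155 with normexp, 7 with processed signals, 54 with the deposited ratios and 29 without a filter, and the 677 in liver became 62 without a slide term, 408 with processed signals and 368 without a filter. The cause was not tested. Loxl1 and Tgfb2 at D3 in lung were not called with processed signals (0.58 ± 0.15 and 0.52 ± 0.11) or without a slide term, nor Tgfb2 with the deposited ratios (0.56 ± 0.10). Their means over all probes were 0.69 and 0.51.

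Leaving out each mouse gave 0 to 9 probes at D2 in lung (9 without D0 mouse 5), 1 to 59 at D3 in lung (without D0 mouse 2 and D0 mouse 5), 0 to 148 at D3 in liver (without D3 mouse 16 and D0 mouse 1), 0 to 2 at D1 and 0 to 1 at D2 in forestomach. List genes ran from 0 to 4 in lung and 0 to 2 in liver, and slopes from 3 to 226 in lung (without D3 mouse 17 and D3 mouse 20) and 114 to 1281 in liver (without D3 mouse 19 and D0 mouse 1). The median change of the 10 genes at D3 ran from 0.24 to 0.41 in lung, and in forestomach from -0.19 to 0.01. With mouse as a block, pairing the tissues, 14845, 11189 and 13140 probes were called for lung and liver, lung and forestomach, and liver and forestomach, against 14753, 11058 and 13037, and the block changed no call of the 10 genes between tissues. It was not run for the list genes. Median signals without background subtraction hold dim probes near the background, so that differences of dim genes can be drawn toward 0. Their sign was not settled either, since the differences of Lox between lung and forestomach and of Tgfb1 between liver and forestomach turned with processed signals.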
